A study of Homo sapiens with 38 samples.

Results

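Endogenous Sp1 was followed by its V5 tag in U2OS cells, a human osteosarcoma line, while a second copy of wild-type Sp1, without V5, was expressed beside it. The regions described are the anti-V5 peaks of 2 lines, Sp1 WT and parental, taken with the rabbit and the mouse antibody apart, and they number 6939 of the 27085 peaks in the 19 lists of the series. A parental peak was called kept when it shared at least 1 bp with a Sp1 WT line peak of the same antibody and lost otherwise, and a Sp1 WT line peak that met no parental peak of that antibody was called new.

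Every cell carried V5 and Halo tags on endogenous Sp1, introduced by genome editing, and the parental line is 1 clone. The Sp1 WT line was made from it by placing a SNAPf-tagged Sp1 with a C-terminal FLAG tag, under doxycycline control, at the AAVS1 safe harbor locus. The parental and the Sp1 WT cells were both given doxycycline at 1 μg/ml for 36 h, sorted by flow cytometry, since only part of an induced culture expresses the transgene, and grown with doxycycline for 36 h more. Since the induced protein has no V5, anti-V5 reads endogenous Sp1 alone, and anti-FLAG reads the induced protein. The anti-FLAG list held 5151 peaks in the Sp1 WT line and 22 in parental cells. In the other 2 lines with anti-V5 lists, the induced protein was the Sp1 activation domain, which is intrinsically disordered, joined to LacI (Sp1 IDR-LacI) or to the DNA binding domain of CTCF (Sp1 IDR-CTCF DBD). CUT&RUN, in which an antibody directs a nuclease to the DNA beside the protein, was done in 2 biological replicates of each line and antibody. A list combines its 2 replicates and so has none of its own, and the read numbers behind it were not analysed here. Whether rabbit and mouse libraries came from the same cultures is not stated.

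Sp1 is a widely expressed activator with zinc fingers that bind GC boxes, short G-rich elements common in promoters with many CpG dinucleotides. Many of its sites lie just upstream of the starts of genes used in every cell. Its long disordered region lets Sp1 molecules associate with one another and with cofactors. A peak list records only where the signal of the tagged protein passed a threshold in both replicates.

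The sequences below show the kinds of site on which the results turn. Each is 121 bases of hg38, plus strand, centred on the summit, and capitals mark the GC box, GGGCGG or its reverse complement CCGCCC, unless said otherwise. PLAUR (chr19:43668558-43668678) stands for the strongest sites found in all 4 lists, SP1 (chr12:53379972-53380092) is the promoter of the factor itself, INAFM1 (chr19:47274529-47274649) was lost with both antibodies, and ATP8B3 (chr19:1812539-1812659) was new with both.
PLAUR: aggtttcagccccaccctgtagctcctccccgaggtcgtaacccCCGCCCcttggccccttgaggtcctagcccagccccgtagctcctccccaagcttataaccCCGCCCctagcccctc
SP1: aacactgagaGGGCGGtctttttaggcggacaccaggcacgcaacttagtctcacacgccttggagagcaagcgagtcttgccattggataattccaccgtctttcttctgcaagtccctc
INAFM1: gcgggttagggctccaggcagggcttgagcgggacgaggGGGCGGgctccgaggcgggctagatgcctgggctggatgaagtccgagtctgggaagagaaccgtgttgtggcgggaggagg
ATP8B3: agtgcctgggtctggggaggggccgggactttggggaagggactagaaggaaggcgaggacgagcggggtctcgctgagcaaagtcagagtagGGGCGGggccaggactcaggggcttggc

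Other windows show repetition. In the window near ENSG00000262898 (chr17:83193138-83193258) and the one inside JAKMIP3 (chr10:132158736-132158856), whose values were higher in the Sp1 WT line, capitals mark 1 of the 10-base words that occur most often in it. In the new site on an unlocalized piece of chromosome 1 (chr1_KI270709v1_random:12367-12487), capitals mark GGAAT or its reverse complement ATTCC, the unit of a human satellite. STYX (chr14:52729986-52730106) is shown with its GC boxes in capitals, for a promoter whose values were lower.
ENSG00000262898: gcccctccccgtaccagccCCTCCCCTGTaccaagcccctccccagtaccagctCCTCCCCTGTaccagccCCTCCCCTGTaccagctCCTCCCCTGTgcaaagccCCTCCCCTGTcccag
JAKMIP3: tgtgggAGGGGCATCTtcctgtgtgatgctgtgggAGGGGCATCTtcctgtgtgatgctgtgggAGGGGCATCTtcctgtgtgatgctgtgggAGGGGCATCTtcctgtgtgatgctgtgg
chr1_KI270709v1_random: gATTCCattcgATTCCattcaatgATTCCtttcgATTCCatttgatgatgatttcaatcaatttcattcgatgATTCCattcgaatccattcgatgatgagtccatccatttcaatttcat
STYX: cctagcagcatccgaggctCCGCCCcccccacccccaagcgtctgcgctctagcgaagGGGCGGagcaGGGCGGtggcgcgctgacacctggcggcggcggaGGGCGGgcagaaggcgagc

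Most parental sites of endogenous Sp1 were found again while Sp1 WT was induced, and in the strongest quartile over 95% were found with each antibody. With the rabbit antibody, 1360 of 1987 parental peaks (68.4%, 95% Wilson interval 66.4 to 70.5%) were kept and 627 were lost. With the mouse antibody, 1162 of 1830 (63.5%, 61.3 to 65.7%) were kept and 668 were lost. New peaks made up 428 of the 1790 rabbit peaks of the Sp1 WT line (23.9%, 22 to 25.9%) and 169 of its 1332 mouse peaks (12.7%, 11.0 to 14.6%). All intervals here cover counting error over peaks, not variation between cultures. The Sp1 WT lists were shorter than the parental lists. When the lists of an antibody were cut to the same length, the kept share was 73.5% with rabbit and 79.5% with mouse anti-V5. The cut took the weakest peaks from the parental lists, and weak peaks were kept least often.

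The share kept followed rank. Peaks were ranked within a list by their −log10 p, which in every list was the smaller of the values of its 2 replicates. In the strongest quartile, 95.6% (93.4 to 97.1%) of the rabbit and 97.4% (95.5 to 98.5%) of the mouse parental peaks were kept. In the weakest quartile the shares were 31.9% (27.9 to 36.1%) and 19.7% (16.3 to 23.6%). New peaks followed the opposite order. They were 7.37% of the strongest and 45.6% of the weakest quartile of the rabbit Sp1 WT list, and 5.71% and 27.3% of those of the mouse list.

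**Figure D1:**
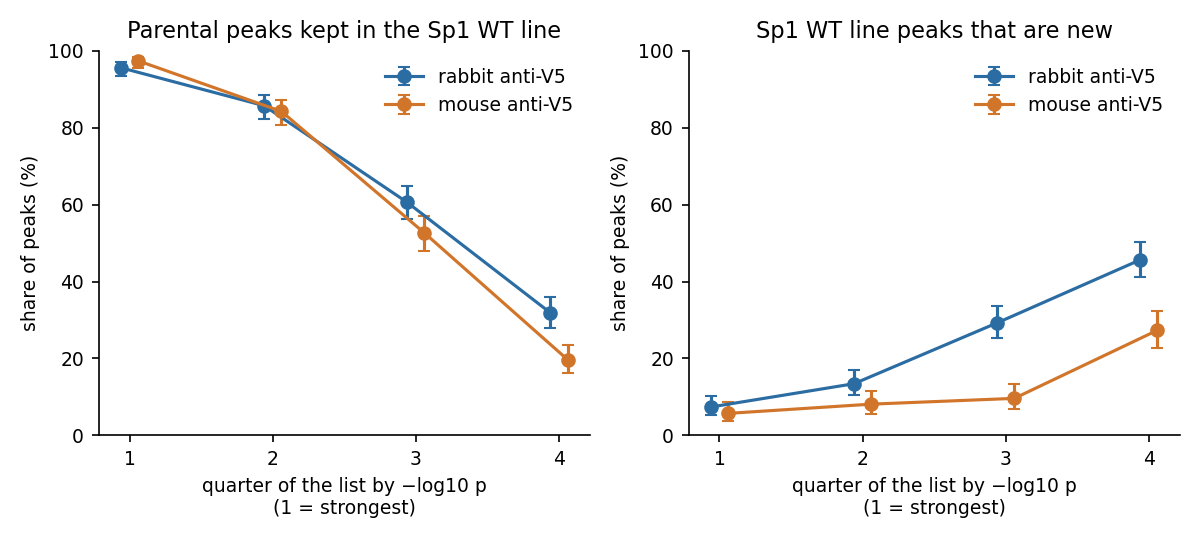
Share of peaks (%) against the quartile of the list by −log10 p, with the strongest at the left, for rabbit (blue) and mouse (orange) anti-V5. Points are the share and bars its 95% Wilson interval. The left panel shows parental peaks kept in the Sp1 WT line, falling from over 95% to 31.9% and 19.7%, and the right panel shows Sp1 WT line peaks that were new, highest in the weakest quartile with both antibodies.

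Lists of the rabbit and the mouse antibody on the same line give a measure of how far lists differ when the line does not. Of the parental rabbit peaks, 75.7% (73.8 to 77.5%) were found in the parental mouse list, against 68.4% found in the Sp1 WT line with the same antibody. Of the parental mouse peaks, 81.9% (80.1 to 83.6%) were found in the parental rabbit list, against 63.5% in the Sp1 WT line. In the strongest quartile the change of antibody and the change of line left similar shares, since 94.8% of the rabbit and 95.4% of the mouse parental peaks were found with the other antibody. In the weakest quartile the change of antibody left 44.2% and 60.2%, against 31.9% and 19.7% after the change of line. Within the Sp1 WT line the antibodies shared less in one direction. There 63.6% (61.3 to 65.8%) of the rabbit peaks were found with the mouse antibody, and 31.1% of those in the weakest quartile, no more than the 68.4% and 31.9% of parental rabbit peaks found after the change of line. In the other direction 84.6% (82.6 to 86.4%) of the mouse peaks were found with the rabbit antibody, and 64.6% of those in the weakest quartile. These shares were set side by side without a test, and the lists differ in length.

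The strongest losses were mostly seen with 1 antibody only. Among the strongest 10% of parental peaks, 13 of 198 were lost with rabbit and 8 of 183 with mouse anti-V5, and 9 of the 13 and 7 of the 8 were in the Sp1 WT list of the other antibody. The promoter of ELL, which encodes an elongation factor for RNA polymerase II, illustrates this and was chosen after its values were seen. In the parental line its rabbit values were 176.1 and 156.1 (−log10 p in the first and second replicate given to the IDR step) and the mouse list lacked it. In the Sp1 WT line the rabbit list lacked it and its mouse values were 122.3 and 179.9. HNRNPL, the gene of a splicing regulator, was likewise in the parental rabbit list at 159.9 and 155.2 and in the Sp1 WT mouse list at 102.8 and 106.4, and in neither of the other lists. Both genes were thus called lost with one antibody and new with the other. A strong site can be missing from a list, and for this reason the description below rests on changes seen with both antibodies.

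When overlapping peaks of the 4 lists were merged into 2667 sites, 1499 were in both parental lists. Of these, 959 (64.0%, 61.5 to 66.4%) were in both Sp1 WT lists, 324 (21.6%, 19.6 to 23.8%) were in only one of them, and 216 (14.4%, 12.7 to 16.3%) were in neither. In the other direction, 50 of the 1126 sites in both Sp1 WT lists (4.44%, 3.38 to 5.81%) were in neither parental list. The balance of losses and gains depended on list length. With lists of equal length, 73 sites were lost and 84 were new with both antibodies.

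The sites kept with both antibodies stood highest. Their median rank percentile, the mean of both antibodies with 100 as the strongest, was 70.6 in the parental lists, and for the sites lost with both it was 25.3. Of the 216 lost sites, 1 had a mean parental rank percentile over 75, against 409 of the 959 kept sites. The new sites had a median of 28.8 in the Sp1 WT lists, and 4 of the 50 were over 75.

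The 6 strongest kept sites lay at CLPTM1L, PLAUR, C19orf81, BRD3OS, SLC27A1 and MYO1F. PLAUR, the receptor of urokinase, had values of 158.2 and 170.9 (parental, rabbit), 179.3 and 287.9 (parental, mouse), 102.3 and 121.6 (Sp1 WT, rabbit), and 125.8 and 156.0 (Sp1 WT, mouse). The site at CLPTM1L, in a gene next to the telomerase gene TERT, ranked among the strongest in all 4 lists, and every 31-base word around its summit occurs at more than 1 place in the genome. Its values were 136.1 and 186.6 (parental, rabbit), 197.5 and 264.0 (parental, mouse), 134.2 and 122.7 (Sp1 WT, rabbit), and 170.6 and 200.9 (Sp1 WT, mouse). SLC27A1 encodes a fatty acid transporter and MYO1F an unconventional myosin, and both, like the other 4, stayed above a mean percentile of 98.

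The SP1 promoter, bound by its own product, was in all 4 lists. Its values were 72.7 and 117.1 (parental, rabbit), 78.3 and 152.1 (parental, mouse), 75.1 and 70.1 (Sp1 WT, rabbit), and 66.6 and 91.8 (Sp1 WT, mouse). Its mean rank percentile was 91.6 in the parental and 92.4 in the Sp1 WT lists. The Sp1 WT FLAG list lacked both SP1 and PLAUR, although it held 794 of the 959 sites kept with both antibodies.

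The highest-ranking site lost with both antibodies was the INAFM1 promoter on chromosome 19 (chr19:47273161-47274960), with its summit 296 bp from the start. Its values were 65.6 and 73.6 in the parental rabbit list and 84.1 and 164.1 in the parental mouse list, and both Sp1 WT lists lacked it. It was present in the rabbit lists of the Sp1 IDR-LacI (62.6 and 111.7) and Sp1 IDR-CTCF DBD lines (60.9 and 49.2), in the mouse list of the former (86.8 and 121.2), and in the FLAG list of the Sp1 WT line (61.7 and 109.0). The FLAG list of the Sp1 WT line thus held a site that both of its anti-V5 lists lacked. No other lost site had a mean parental percentile over 75.

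The next lost sites were promoters of genes with varied roles. CHD4, the ATPase of the NuRD remodelling complex, had 29.3 and 65.2 (rabbit) and 39.3 and 103.1 (mouse) in the parental line. RBIS, which serves ribosome assembly, had 36.0 and 45.7 with rabbit and 31.1 and 48.2 with mouse anti-V5. The ING1 and CARS2 promoter, which serves a reader of histone H3K4 methylation and the mitochondrial cysteinyl-tRNA synthetase, had 23.7 and 29.0, and 38.4 and 58.1. GCDH, an enzyme of lysine and tryptophan breakdown, had 24.6 and 27.5, and 32.8 and 42.8. MACO1, BRWD3 and ABCB8, a mitochondrial transporter gene, were the other promoters among the 10 highest, with mean parental percentiles of 57.5 to 61.6. The 2 sites of the 10 away from promoters lay inside TBPL2, a TBP paralog, and 6059 bp from the start of ENSG00000258711. TBPL2 was the only one of the 10 that the Sp1 WT FLAG list lacked.

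The highest-ranking site new with both antibodies was the ATP8B3 promoter (chr19:1811665-1813189), 323 bp from the start of a phospholipid flippase gene. Its values in the Sp1 WT line were 50.3 and 51.1 with rabbit and 63.9 and 108.8 with mouse anti-V5, and both parental lists lacked it. It was also in the mouse list of the Sp1 IDR-LacI line (75.2 and 70.6), in both lists of the Sp1 IDR-CTCF DBD line (58.4 and 53.6 with rabbit, 55.9 and 90.5 with mouse), and in the FLAG list (61.8 and 99.7).

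Of the other 9 named new sites, 7 lay away from protein-coding starts. One was 15122 bp from the start of ADRA2C, an adrenergic receptor gene, with 34.6 and 32.2 (rabbit) and 48.1 and 68.3 (mouse). One lay inside RYR1, the calcium release channel of skeletal muscle, with 34.4 and 40.8, and 42.2 and 71.7. Another was inside ROR2, a receptor for Wnt5a, in sequence of which 98.2% of the words recur in the genome, with 25.5 and 34.7, and 45.3 and 57.4. LMTK3, with 22.5 and 22.4 and 38.3 and 77.7, and ZBTB7B, where the nearest start is that of ENSG00000289103, with 20.3 and 24.8 and 25.5 and 43.4, were promoters. The remaining 4 of the 10 were inside CAMSAP3, near GPIHBP1, and at a pair of places on the unlocalized piece of chromosome 1. The GPIHBP1 site (chr8:143211265-143216775) lay beside a strong parental rabbit peak (chr8:143218110-143220546, values 136.7 and 180.4). That peak was itself called lost with rabbit anti-V5.

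**Figure D2:**
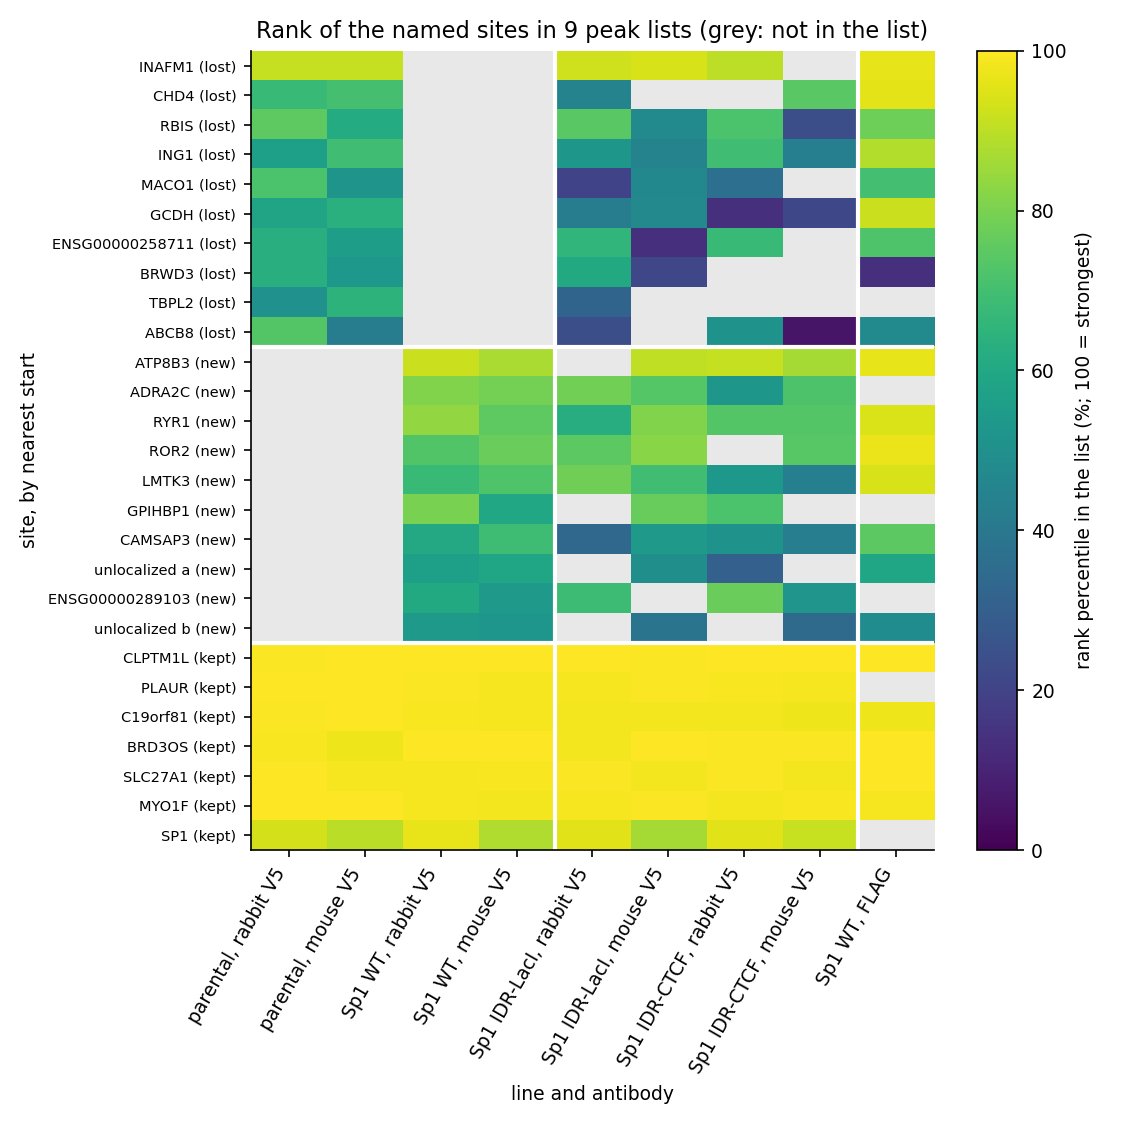
Rank percentile (colour, %, with 100 as the strongest) of the 10 lost, 10 new and 7 kept named sites (rows) in 8 anti-V5 lists and the Sp1 WT FLAG list (columns). Grey cells are sites missing from a list. Lost sites are grey in both Sp1 WT columns and mostly coloured in the columns of the other induced lines, new sites are grey in both parental columns, and the kept sites stay above a percentile of 86 in every anti-V5 list.

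Sites lost with both antibodies had shares of promoters, GC boxes, FLAG peaks and repeated sequence whose intervals overlapped those of the kept sites. A protein-coding start lay within 1000 bp of the summit at 181 of 216 lost sites (83.8%, 78.3 to 88.1%) and 808 of 959 kept sites (84.3%, 81.8 to 86.4%). A GC box lay within 100 bp of the summit at 178 lost (82.4%, 76.8 to 86.9%) and 804 kept sites (83.8%, 81.4 to 86.0%). The FLAG list of the Sp1 WT line held 182 lost sites (84.3%, 78.8 to 88.5%) and 794 kept sites (82.8%, 80.3 to 85.1%), although at a lower rank for the lost, with median FLAG percentiles of 55.7 and 87.6. When only FLAG peaks with an IDR of at most 0.01 were counted, they covered 49.4% of lost against 73.5% of kept rabbit peaks, and 60.2% against 78.1% of mouse peaks. Repeated sequence, in which at least 50% of the 31-base words within 100 bp of the summit occur at more than 1 place in the genome, held 9 lost (4.17%, 2.21 to 7.73%) and 52 kept sites (5.42%, 4.16 to 7.04%).

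Sites new with both antibodies were of another kind. Of the 50, 22 (44%, 31.2 to 57.7%) were at a protein-coding start, 14 (28%) were between genes and 11 (22%) inside a gene. A GC box was near the summit of 28 (56.0%, 42.3 to 68.8%). Repeated sequence held 16 (32.0%, 20.8 to 45.8%), and 6 lay on unplaced or unlocalized sequence. The anti-FLAG list held 42 of them (84.0%, 71.5 to 91.7%). The background lists, anti-FLAG in parental cells and in cells with a nuclear SNAP control, held 5 of the new sites, 0 of the lost and 0 of the kept.

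With each antibody on its own the new peaks differed from the kept in the same features. A protein-coding start was near 50.0% (45.3 to 54.7%) of new rabbit peaks and 57.4% (49.9 to 64.6%) of new mouse peaks, against 84.9% and 84.1% of kept peaks. Repeated sequence held 38.1% (33.6 to 42.8%) of new rabbit and 25.4% (19.5 to 32.5%) of new mouse peaks, against 5.81% and 6.71% of kept peaks. Outside repeated sequence the new peaks lay closer to the kept ones, with a protein-coding start near 77.0% (71.5 to 81.6%) with rabbit and 72.2% (63.8 to 79.3%) with mouse anti-V5, against 88.4% and 87.9%. In whole lists, repeated sequence held 13.5% of rabbit and 9.01% of mouse peaks in the Sp1 WT line, against 6.19% and 5.79% in the parental line. It held 5.74% and 9.95% in the Sp1 IDR-LacI line, and 7.23% and 7.86% in the Sp1 IDR-CTCF DBD line.

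**Figure D3:**
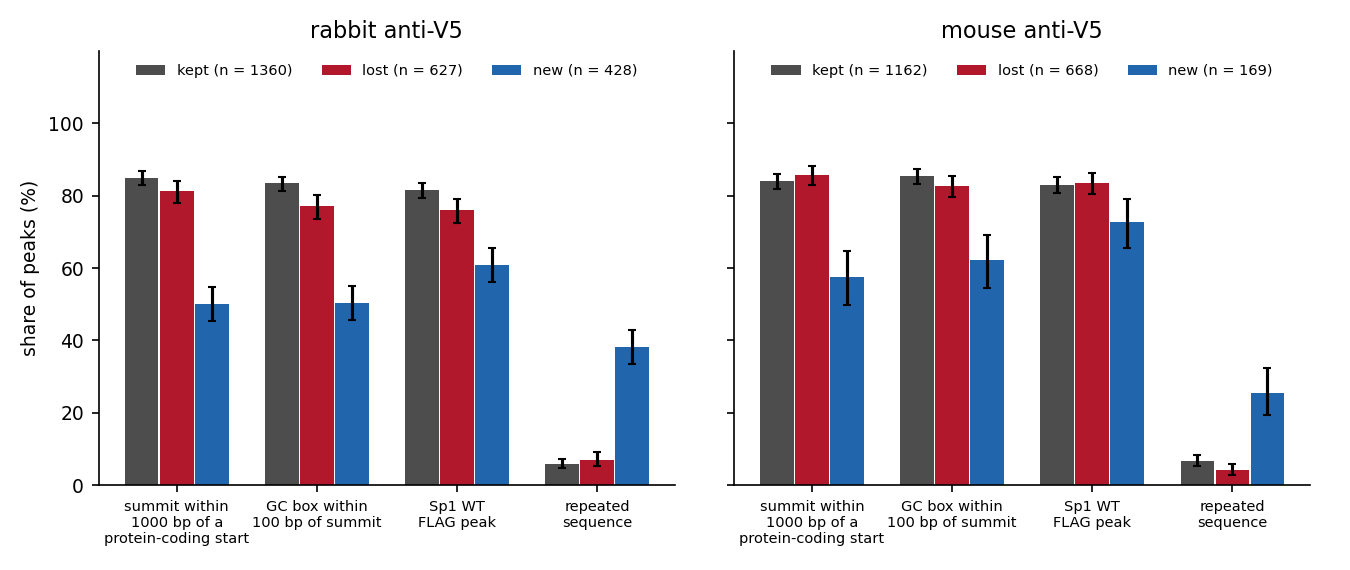
Share (%) of kept, lost and new peaks with each of 4 features, for rabbit (left) and mouse (right) anti-V5. Bars are shares and lines their 95% Wilson intervals. With rabbit anti-V5 lost peaks have lower shares of GC boxes (77.0% against 83.4%) and FLAG peaks (75.9% against 81.5%) than kept peaks, with intervals that do not overlap, and with mouse anti-V5 the intervals of kept and lost peaks overlap for both features. New peaks have the lowest shares of promoters, GC boxes and FLAG peaks and the highest of repeated sequence, at 38.1% with rabbit and 25.4% with mouse anti-V5.

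Windows rich in the GGAAT satellite unit were common among new rabbit peaks. Of the 163 new rabbit peaks in repeated sequence, 107 had at least 5 copies of GGAAT or ATTCC within 100 bp of the summit, and 54 of the 163 were on chromosome 1. In all, such windows were found in 114 of the 1790 rabbit peaks of the Sp1 WT line (6.37%) and in 5 of the 1987 parental rabbit peaks. With the mouse antibody there were 13 in the Sp1 WT list and 1 in the parental list. The other induced lines had the opposite order of antibodies in one case, with 3 rabbit and 38 mouse peaks in the Sp1 IDR-LacI line, and 21 and 13 in the Sp1 IDR-CTCF DBD line. The same windows made up 136 of the 295 peaks of anti-FLAG in the SNAP control line (46.1%) and 12 of 22 in parental cells. The search was chosen after the new peaks had been seen. Without these peaks, new peaks were 19% of the rabbit Sp1 WT list.

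At sites found in both lines the ranking value was compared with its replicates, by limma on the log2 of the quantile-normalized −log10 p, with 2 libraries against 2 for each antibody. Sites lost or new with an antibody were not tested with it. A site that fell far enough to be lost could therefore not be counted as lower, nor a new site as higher. With rabbit anti-V5, 0 of 1357 sites passed an adjusted p of 0.05 (background 0%), with 111 at an unadjusted p under 0.05. With mouse anti-V5, 8 of 1162 sites passed and all were higher in the Sp1 WT line, a background of 0.688%, and 0% were lower. Named by the nearest start, these were PTPRU, ENSG00000262898, PCBP3, PRKAR1B-AS1, HELZ2, MIR4274, CACNA1H and TAFA5, with log2 changes of 1.21 to 1.91. The nearest start was 33296 bp away for PRKAR1B-AS1 and 79844 bp away for MIR4274, a site inside SORCS2. Leaving out any 1 library from the mouse fit left 0 calls, as did fits without normalization or without the log2. With median centring in place of quantile normalization, 6 sites were called with rabbit, 21 with mouse and 4 with both antibodies. Of the 8 mouse calls under quantile normalization, the 5 that were tested with rabbit anti-V5 were higher there too, with log2 changes of 1.13 to 1.48 and adjusted p of 0.19 to 0.27.

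Of 961 sites tested with both antibodies, 0 passed with both, and 32 had an unadjusted p under 0.05 in the same direction with both. In 27 of these (2.81% of those tested) the value was higher in the Sp1 WT line and in 5 (0.52%) it was lower. This set depended on normalization. Without normalization between libraries 0 sites had such a p with both antibodies, and with median centring 29 had. A single fit over the 8 libraries with the antibody as a block called 35 of 959 sites higher (3.65%) and 9 lower (0.938%) at an adjusted p of 0.05. That fit treats the antibodies as separate samples of a line, which they are not if they share cultures.

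PTPRU, a receptor tyrosine phosphatase gene, had the largest mean change. Its parental values were 16 and 27.5 with rabbit and 20.6 and 42.7 with mouse anti-V5, and its Sp1 WT values were 33.0 and 45.3, and 66.1 and 83.2. The groups of these unnormalized values did not overlap with either antibody, and the share of all sites without overlap was not counted. After normalization the log2 change was 1.48 ± 0.24 (SE, limma adjusted p = 0.19) with rabbit and 1.91 ± 0.24 (limma adjusted p = 0.0027) with mouse anti-V5. PCBP3, which encodes a poly(C)-binding protein, had parental values of 21.9 and 25.8, and 30.5 and 48.1. In the Sp1 WT line these were 54.7 and 35.1, and 51.7 and 104.4, also without overlap. The site near ENSG00000262898 had parental values of 21.9 and 33.8, and 21.4 and 58.5, against 40.5 and 49.7, and 72.4 and 85.4. JAKMIP3, inside whose gene the repeated window shown above lies, had 34.6 and 32.8, and 51.7 and 68.8, against 79.4 and 46.8, and 92.5 and 98.8. Named by the nearest start, the other 6 of the 10 largest were ENSG00000260416, ENSG00000261090, TAFA5, MIR4274, ENSG00000267036 and CPAMD8, with mean log2 changes of 1.02 to 1.28. That start was 77743 bp away for ENSG00000261090, and the ENSG00000267036 site lay inside HCN2. Ranks were also above the parental ones in the other induced lines. Those lines were compared with the same parental lists that had served to choose the sites. The comparison therefore cannot separate a change in these lines from low parental values. PTPRU had rank percentiles (rabbit, mouse) of 33.5 and 40.3 in the parental and 82.2 and 88.0 in the Sp1 WT lists. It had 88.3 and 82.2 in the Sp1 IDR-LacI and 77.1 and 79.8 in the Sp1 IDR-CTCF DBD lists. All 10 ranked above the parental list in both other lines, except with mouse anti-V5 ENSG00000261090 (Sp1 IDR-LacI) and ENSG00000267036 (Sp1 IDR-CTCF DBD).

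The 5 sites with lower values, named after these were seen, were at the promoters of CHEK2, LRP3 (nearest start ENSG00000289378), STYX, CDKN3 and SIRT2. CHEK2 encodes a kinase of the DNA damage checkpoint and shares its promoter with HSCB. Its parental values were 47.7 and 51.2, and 61.3 and 72.8, against 17.0 and 22.7, and 17.3 and 33.6 in the Sp1 WT line, and its log2 change was −0.69 ± 0.27 (limma adjusted p = 0.53) with rabbit and −0.82 ± 0.28 (limma adjusted p = 0.28) with mouse anti-V5. STYX, a pseudophosphatase gene, had 20.9 and 41.8, and 56.3 and 104.4, against 9.8 and 16.7, and 18.8 and 44. CDKN3, a phosphatase that acts on cyclin-dependent kinases, had 51.2 and 64.8, and 35.3 and 60.4, against 23.7 and 27.1, and 15.2 and 22.3. The unnormalized Sp1 WT values lay under the parental ones with each antibody at all 3 promoters. The share of all sites with this order was not counted. PLAUR showed it too, with log2 changes after normalization of only −0.17 with rabbit and −0.34 with mouse anti-V5. The log2 changes were changes of rank and strength relative to the other sites, since the libraries were normalized to a common distribution. Ranks under the parental ones were also found in the other induced lines. These sites had been chosen with the same parental lists, so the comparison cannot separate a change in those lines from high parental values. CHEK2 had rank percentiles (rabbit, mouse) of 84.63 and 85.03 in the parental and 50.53 and 32.32 in the Sp1 WT lists. It had 45.44 and 57.36 in the Sp1 IDR-LacI and 48.23 and 40.06 in the Sp1 IDR-CTCF DBD lists. All 5 sites ranked under the parental list of the same antibody wherever these lines listed them. CDKN3 was missing from the mouse lists of both lines.

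**Figure D4:**
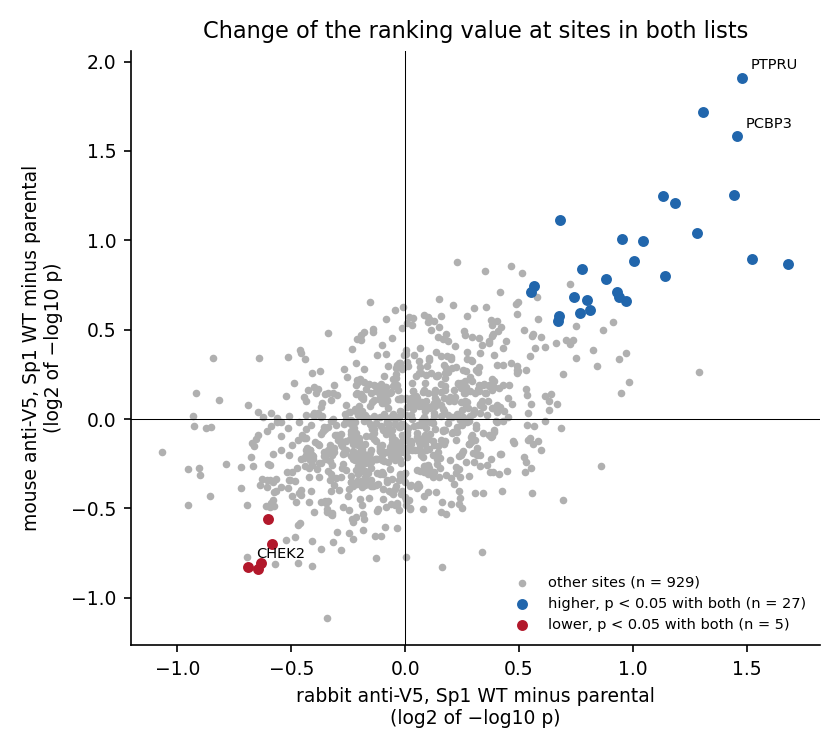
Change of the ranking value (log2 of −log10 p, Sp1 WT minus parental) with rabbit (x axis) against mouse (y axis) anti-V5 at 961 sites, with 1 point a site. Blue points (27) and red points (5) have an unadjusted p under 0.05 with both antibodies in the same direction. PTPRU lies at 1.48 and 1.91, and among these sites more reach high than low values with both antibodies. Only sites listed in both lines are plotted, so the balance of high and low values leaves out lost and new sites.

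Some of the sites with higher values held recurring words. At 9 of the 27 (33.3%, 18.6 to 52.2%) at least 50% of the 10-base words within 100 bp of the summit occurred more than once in that window, counting both strands. Of all 961 sites tested, 51 (5.31%, 4.06 to 6.91%) did so, and of the 5 lower sites 0 did. A protein-coding start was near 11 of the 27 (40.7%, 24.5 to 59.3%), against 84.3% of the sites tested, and near 5 of the 5 lower sites. The Sp1 WT FLAG list held 23 of the 27 higher sites (85.2%) and 5 of the 5 lower ones. The measure was chosen after the windows had been read, so these shares only describe the sites.

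The same repetition was found in new sites and hardly in lost ones. Among the sites new with both antibodies 13 of 50 (26%, 15.9 to 39.6%) had it, 11 of them without being rich in GGAAT, and among those lost with both 1 of 216 (0.463%, 0.0818 to 2.58%) had it. Among the sites kept with both the share was 51 of 959 (5.32%, 4.07 to 6.92%). In whole lists the share was 7.49% (6.36 to 8.80%) with rabbit and 6.98% (5.73 to 8.48%) with mouse anti-V5 in the Sp1 WT line, against 3.27% (2.57 to 4.15%) and 4.32% (3.48 to 5.35%) in the parental line. Left without the windows rich in GGAAT, these were 5.20% and 6.68%, against 3.12% and 4.26%. In the Sp1 IDR-LacI line they were 4% and 5.75%, and in the Sp1 IDR-CTCF DBD line 4.28% and 6.16%, before that removal. After it they were 3.95% and 5.18%, and 4.01% and 6.02%.

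**Figure D5:**
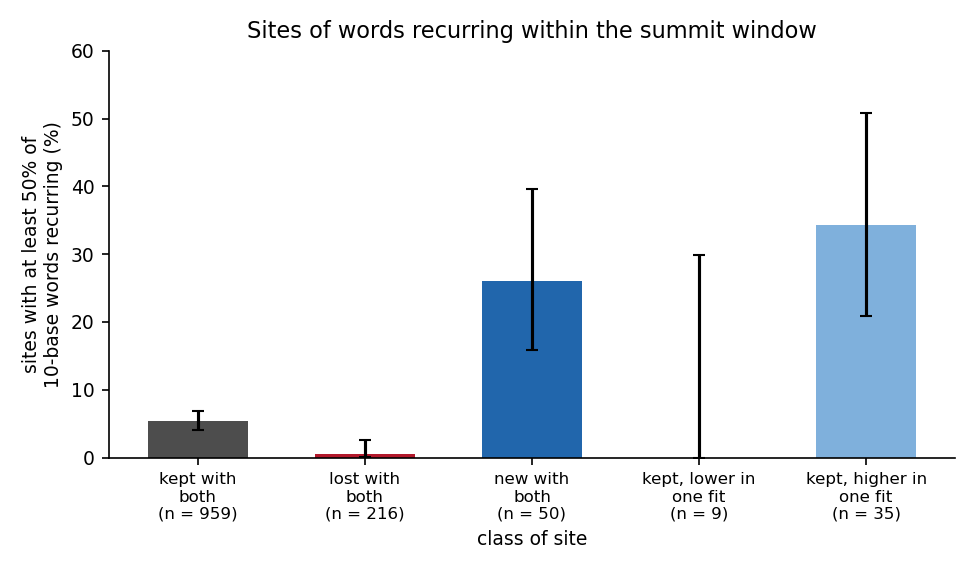
Share (%) of sites in which at least 50% of the 10-base words around the summit recur within the window, by class of site. Bars are shares and lines their 95% Wilson intervals. The share is 26% of the 50 sites new with both antibodies and 0.463% of the 216 lost with both, and among kept sites it is 34.3% of the 35 called higher and 0 of the 9 called lower in the fit over both antibodies.

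By gene, 2050 genes had a peak within 1000 bp of a start in both parental lists, of which 1311 (64.0%) kept one with both antibodies and 274 (13.4%) lost it with both. A further 34 genes gained one with both. The lists of genes below were chosen with earlier results of these data known, and their counts stand beside those for all genes with no test. Of 27 annotated genes of SP and KLF factors, relatives of Sp1, only 4 had a peak in both parental lists. All 4 kept one with both antibodies, namely SP1, SP2, KLF13 and KLF16. Of 45 reported Sp1 targets only 3 had a peak in both parental lists, and these were kept, namely MAOA, TK1 and SP1 itself. Splicing factor genes kept 8 of 11 and lost 0 with both, and the genes of Mediator, TFIID and RNA polymerase II kept 2 of 3 and lost 0.

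The other lists, zinc finger genes aside, held from 0 to 3 genes lost with both antibodies. Mitochondrial ribosomal protein genes kept 5 of 10 and lost MRPL49, MRPS12 and MRPS9. MRPS12 shares its promoter with SARS2, the mitochondrial seryl-tRNA synthetase, and their parental values of 14.7 and 22.1 with rabbit and 23.9 and 46.2 with mouse anti-V5 are those of a single peak. Among aminoacyl-tRNA synthetase genes 4 of 6 were kept, and TARS1 was the other lost. Proteasome genes kept 2 of 5 and lost PSMC6 and PSME1, a base subunit and an activator subunit. Oxidative phosphorylation genes kept 6 of 9, lost COX5B and COX6B1, and gained ATP5F1E. Cytosolic ribosomal protein genes kept 2 of 4 and lost RPL41. The highest parental value among these lost genes was 51.9, in a mouse library at MRPS9.

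Zinc finger genes had the most members in both parental lists. They kept 25 of 41 (61.0%), lost 8 (19.5%) and gained ZNF414, and all 8 lost (ZNF318, ZNF471, ZNF576, ZNF768, ZNF77, ZNF816, ZNF837 and ZSCAN20) had a Sp1 WT FLAG peak, as did 228 of the 274 genes lost with both antibodies overall. Cell cycle genes kept 6 of 10 and lost CCNT2, CDC23 and CDC40, of which CDC23 is a subunit of the anaphase-promoting complex, CCNT2 serves transcription elongation and CDC40 splicing. Genes of DNA replication kept 4 of 9 and lost 0 with both, and those of cholesterol and fatty acid synthesis kept LSS, 1 of 4, and lost SREBF2. SREBF2, the regulator of cholesterol synthesis, had 22.6 and 22.8 with rabbit and 18.7 and 43.2 with mouse anti-V5 in the parental line. The small nuclear and transfer RNA list kept 2 of 2, and histone genes had 0 in the parental lists.

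Sites lost in the Sp1 WT line were partly missing from the other induced lines too. Those lines were compared with the same parental lists, so only each list's own counts are given. Of the 216 sites lost with both antibodies, the rabbit and mouse lists of the Sp1 IDR-LacI line held 139 (64.4%) and 85 (39.4%), and those of the Sp1 IDR-CTCF DBD line 125 (57.9%) and 44 (20.4%). All 4 of these lists held 18 of the sites and none held 35. For comparison, the same lists held 94.2% and 93.8%, and 95.1% and 91.6%, of the 959 sites kept with both. Of all parental peaks of the same antibody they held 78.9% and 76.0%, and 77.8% and 66.6%. The lost sites ranked lower than the kept ones, with median parental percentiles of 25.3 and 70.6. Of the 50 new sites, the lists held 24 and 42, and 31 and 37, and at least 1 of the lists held 49.

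The number of parental peaks kept was compared between lines after every list of an antibody was cut to the length of the shortest, by two-sided exact binomial tests on the peaks kept in only one of 2 lines, adjusted over the 4 comparisons. With rabbit anti-V5 the Sp1 WT line kept 1315 of 1790 parental peaks (73.5%) and the Sp1 IDR-LacI line 1372 (76.6%), a difference of −3.18 percentage points (adjusted p = 0.015 by the exact test). The Sp1 IDR-CTCF DBD line kept 1354 (75.6%), a difference of −2.18 points (adjusted p = 0.077, exact). With mouse anti-V5 the Sp1 WT line kept 1059 of 1332 (79.5%, 77.3 to 81.6%) and both other lines 1048 (78.7%, 76.4 to 80.8%), a difference of 0.826 points (adjusted p = 0.52, exact, for each). The tests compare lists, not cultures. With whole lists, which were longer in both other lines, the Sp1 WT line kept fewer parental peaks in all 4 comparisons, by −3.06 to −12.5 points, each with an adjusted exact p of at most 0.0019.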

How the data were processed

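CUT&RUN samples number 38, in pairs of biological replicates for 19 pairings of a line with an antibody, and 8 of them lie behind the 4 lists compared here. According to the study's methods, trimming was done with Cutadapt 2.6, alignment to hg38 with Bowtie2 2.3.5.1 and deduplication with SAMtools 1.9. The authors then called peaks in MACS3, whose version they give as 2.2.7.1, using p = 0.001 and merged controls. They deposited peaks whose irreproducible discovery rate (IDR) across replicates was 0.1 or less. The −log10 p-values are those the authors deposited for the merged peak and for the replicates in the order given to IDR, which the files do not tie to labelled replicates. The score is the −log10 of the global IDR as deposited. The study's read numbers were not used here, so no limit from depth is given. Groups were taken from the labels. The members and gene lists were chosen with earlier results of these data known.

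Overlap meant at least 1 bp in common, and merged sites are runs of overlapping peaks. Summits were placed against transcription starts of GENCODE 44, and gene symbols and sequence are from that annotation and hg38. Shares have 95% Wilson intervals. limma 3.58.1 (R 4.3.3) was fitted to all sites found in both lists of an antibody, with Benjamini-Hochberg adjustment and a threshold of 0.05. The limma p-values set the difference between lines against the spread between replicates within lines, with variances moderated across sites. Exact binomial tests used SciPy 1.17.1 and counted peaks, without replicates. Other software was Python 3.11.15, NumPy 2.4.6, pandas 2.3.3, numba 0.67.0, pysam 0.24.0 and matplotlib 3.10.9. The overlap code and the limma fit were tested on simulated data. Named are the 10 sites lost and the 10 new with both antibodies with the highest mean rank percentile, the 6 highest kept sites, the 10 largest changes of value with an unadjusted p under 0.05 in the same direction with both antibodies, members of the gene lists lost or new with both, and SP1. Alternatives were IDR of at most 0.05 and 0.01, overlap of 50% of the shorter peak, lists of equal length, chromosomes 1 to 22 and X, and lists without repeated sequence or background peaks. Leaving out GGAAT-rich peaks and joining peaks up to 500 bp apart were added after the data were seen. A CUT&RUN blacklist named in the study was not used here. The other lists and the tables of the authors' own comparisons were not used.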

Additional observations from a re-analysis of the deposited data

How the results depend on the processing

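No paired analysis was possible because the replicate columns of the lists carry no replicate number. For kept shares, IDR of at most 0.01 gave 70.8% with rabbit and 67.4% with mouse anti-V5, and equal list length gave 73.5% and 79.5%. For new shares, equal list length gave 26.4% and 20.4% and leaving out repeated sequence 17.4% and 10.7%, while with rabbit anti-V5 IDR of at most 0.01 gave 19.2% and leaving out GGAAT-rich peaks 19%. The sites lost with both antibodies numbered 107 at IDR of at most 0.01 and 73 at equal length, and the new sites 21 and 84. The sites kept with both stayed within 1.5 times their count under every alternative run. With mouse anti-V5 and whole lists, the share kept by the Sp1 WT line was −12.5 percentage points from that of the Sp1 IDR-LacI line and −3.06 from that of the Sp1 IDR-CTCF DBD line, where equal length had given small positive differences. With rabbit anti-V5 the differences were −9.36 points from the Sp1 IDR-CTCF DBD line, which then passed the threshold, and −10.4 from the Sp1 IDR-LacI line, which passed in both settings. A longer list has by construction more chances to overlap.

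For changed values, median centring called 6 sites with rabbit, 21 with mouse and 4 with both antibodies. The 8 mouse calls became 0 without normalization and 0 on the untransformed −log10 p, 2 without the lowest quartile and 3 without repeated sequence. The cause was not tested. Leaving out 1 library at a time, where a lone library is assumed to vary like the other group, gave 0 to 13 calls with rabbit anti-V5 and 0 with mouse anti-V5 each time. The 13 came without the second parental library and 6 without the first. The fit over both antibodies with the antibody as a block called 44. In 64 other recomputations a share stayed within its interval, a count within 1.5 times, or a tested difference on its side of the threshold, the −10.4 points included. Of 24 recomputed shares of a feature, 18 left the interval of the reported share.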

Other observations

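Chromosome 19, rich in genes and in GC, held 15 of the 50 sites new with both antibodies (30.0%, 95% Wilson interval 19.1 to 43.8%), 23 of the 216 lost (10.6%, 7.20 to 15.5%) and 164 of the 959 kept (17.1%, 14.9 to 19.6%). With each antibody alone it held 11.7% of the new rabbit peaks and 23.1% of the new mouse peaks, against 14.9% and 16.3% of the kept and 10.4% and 10.3% of the lost, so the share among new peaks was under that among kept peaks with rabbit and over it with mouse anti-V5. Peaks called lost were narrower than those kept, with median widths of 510 against 672 bp with rabbit and 545 against 757 bp with mouse anti-V5.

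Of all 627 rabbit peaks called lost, 107 (17.1%) were in the Sp1 WT line's mouse list, and among the 668 mouse peaks called lost, 282 (42.2%) were in its rabbit list. Of the new peaks, 127 of 428 with rabbit (29.7%) and 59 of 169 with mouse anti-V5 (34.9%) were in the parental list of the other antibody.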
